A study of Mus musculus with 6 samples.

Results

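Heat shock and chaperone genes were examined in the adult mouse brain, as the rows of a gene count table whose names begin with an Hsp symbol, with Dnaja, Dnajb or Dnajc and a number, or are Cct2 to Cct8. The proteoglycan gene Hspg2 and 14 pseudogenes share these names and were left out, which gave 80 of the 53801 genes in the table. Of these, 76 had 10 or more counts when the 6 samples were summed and were tested, among 23975 genes tested in all. Hspb9 and Dnajc5g had 0 counts in all 6 samples, Dnajb8 had 1 count and Dnajc5b had 9, and these 4 genes were not tested. The series compared one brain hemisphere of each of 3 Bahd1-/- mice (Bahd1-KO) with one of each of 3 Bahd1+/+ mice (Bahd1-WT), all C57BL/6 and about 70 weeks old, with no other treatment. Bahd1 codes for a chromatin protein that takes part in forming silent heterochromatin. The Bahd1-KO mice came from crosses of heterozygous animals and are survivors, as many animals without Bahd1 die around birth. A hemisphere pools all cell types of the brain, so that fewer cells of a type and less RNA per cell cannot be told apart.

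Chaperones bind unfolded proteins and help them to fold, to assemble or to be degraded. HSP70 proteins work in cycles of ATP hydrolysis started by J proteins (the DNAJ families), and are reset by exchange factors such as the HSP110 proteins. HSP90 acts later, on kinases, receptors and other clients. HSP60 with its lid HSP10 folds proteins in mitochondria, the ring-shaped CCT complex folds actin and tubulin in the cytosol, and the small heat shock proteins hold unfolded proteins without using ATP. In the cytosol the stress-induced members are switched on by heat shock factors, which bind inverted repeats of the letters GAA. The members of the endoplasmic reticulum (ER) are switched on by the unfolded protein response. Some J proteins act at synapses, such as the synaptic vesicle protein of Dnajc5.

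The libraries held 42297150 to 93557948 counts, where 3 counts corresponded to 0.0315 to 0.0690 CPM (counts per 1000000 counts of a library, after TMM scaling), so that only the lowest members were near the limit of detection. Bahd1 had 844 to 1383 counts in Bahd1-WT and 0 to 14 in Bahd1-KO. Neuronal, astrocyte and oligodendrocyte markers were abundant in every library, as the tissue label implies. Several marker lists differed between the mice. The summed level of 5 choroid plexus markers was 282 to 375 CPM in Bahd1-WT and 459 to 1080 CPM in Bahd1-KO, that of 6 genes of motile cilia 18.0 to 21.2 and 24.0 to 43.0 CPM, and that of 5 blood genes 10.8 to 15.9 and 15.1 to 92.6 CPM, each highest in Bahd1-KO replicate 2. All 3 Bahd1-KO mice were above all Bahd1-WT mice for 1 of these choroid plexus markers, 4 of the cilia genes and 2 of the blood genes. Of all genes tested, 20.6% were above and 19.3% below in this way. The cilia gene Dnah5 was below without overlap, at 5.24 to 6.51 CPM in Bahd1-WT and 3.42 to 5.15 CPM in Bahd1-KO. The choroid plexus sum was mostly Ttr (213 to 309 CPM in Bahd1-WT and 402 to 1018 CPM in Bahd1-KO), while 3 of the 5 markers had a lower mean in Bahd1-KO, and Kl was below all Bahd1-WT mice in all 3 Bahd1-KO mice. The sum of 5 lung genes was 2.28 to 107 CPM in Bahd1-WT and 0.437 to 1.45 CPM in Bahd1-KO, without overlap for 4 of the 5. That of 5 pituitary genes was 0.177 to 18.7 CPM and 0.161 to 42.4 CPM, and that of 5 oligodendrocyte genes 4887 to 5694 and 5104 to 7898 CPM, with Mbp and Mag above all Bahd1-WT mice in all 3 Bahd1-KO mice. The sum of 6 astrocyte markers was 6091 to 6655 CPM in Bahd1-WT and 5032 to 6165 CPM in Bahd1-KO, with Aqp4, Slc1a2 and Slc1a3 lower and Aldoc higher without overlap. Of 7 neuronal markers (6980 to 7891 and 6340 to 7553 CPM in sum), Syt1 and Gad2 were lower and Tubb3 and Slc17a7 higher without overlap. The part of these differences in the results below was not tested.

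No heat shock or chaperone gene differed between the genotypes at an adjusted p under 0.05 in edgeR's quasi-likelihood test, against 2 of all 23975 genes. A gene was called when it also changed at least 2-fold, and 0.00834% of all genes were. At an unadjusted p under 0.05, 15 of the 76 members were higher in Bahd1-KO, or 19.7%, where 19.9% of all genes were. In the other direction, 7 of 76 were lower, or 9.21%, where 12% of all genes were. The shares of members past this level were thus near those of all genes in both directions. The median log2 fold change, Bahd1-KO over Bahd1-WT, was -0.06 for the members and -0.06 for all genes. All 3 Bahd1-KO mice were above all 3 Bahd1-WT mice for 17 members, or 22.4% (20.6% of all genes), and below them for 13, or 17.1% (19.3% of all genes). DESeq2's Wald test called 5 members, or 6.58%, all higher in Bahd1-KO (Hspb1, Hspbp1, Dnajc4, Dnajb5 and Hspa12b), where 9.61% of all genes were called higher with its normal prior. The number of calls thus depended on the tool, and it also turned on 1 library. Without Bahd1-KO replicate 1, edgeR gave 26 of 76 members, or 34.2%, an adjusted p under 0.05 (30% of all genes) and called 9, or 11.8%, all higher, while 14.6% of all genes were called higher. At an unadjusted p under 0.05, 19 were then higher, or 25.0% (24.7% of all genes). In the same fit 24 were lower, or 31.6%, above the 18.6% of all genes. The split of members past the unadjusted level also depended on the scaling, being 15 higher and 7 lower with TMM factors, 19 and 1 with total counts (22.3% and 7.42% of all genes), and 11 and 13 with upper-quartile factors (16.6% and 18.1% of all genes), which shift the median of all genes by -0.14.

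Differences between the members followed the GC content of their transcripts. Over the 76 members, Spearman's rho between GC content and log2 fold change was 0.786, and it was 0.745 over the 23940 genes with an annotated transcript. Genes are not independent replicates, and all points share the same 6 libraries, so these are descriptions. Of the 26 members with the lowest GC content (39.5% to 45.6%), 23 had a lower mean in Bahd1-KO, with a median log2 fold change of -0.35. Of the 25 with the highest GC content (50.9% to 61.7%), 22 had a higher mean in Bahd1-KO, with a median of 0.69. The 25 between them had a median of -0.09. A second fit therefore used an offset for GC content and length, a smooth curve of count on both quantities in each library. With this offset the 3 medians were 0.01, 0.01 and 0.15, rho over the members was 0.046, and 57 of the 76 members had a smaller difference than before. No member had an adjusted p under 0.05 in edgeR with the offset either, against 0.0167% of all genes, and leaving out Bahd1-KO replicate 1 gave 4 calls, or 5.26%, beside 3.97% of all genes. From all 6 mice and the offset, 12 members were higher and 6 lower at an unadjusted p under 0.05 (15.8% and 7.89%), beside 9.89% and 11.4% of all genes. All Bahd1-KO mice were above all Bahd1-WT mice for 16 members on this scale (11.7% of all genes) and below for 10 (14.6%). Of the 76 members, 24 had opposite signs with and without the offset, so that the value with the offset is given beside the first.

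**Figure D1:**
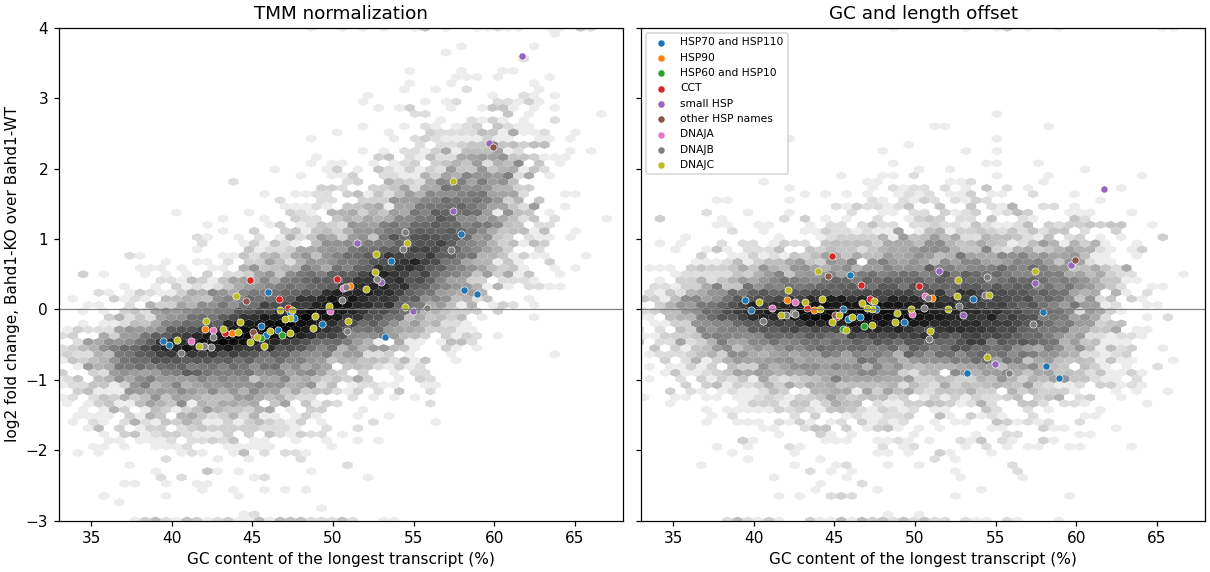
GC content of the longest transcript of each gene (in percent, x axis) against its log2 fold change, Bahd1-KO over Bahd1-WT (y axis), with TMM normalization (left) and with the GC and length offset (right); shades of grey are all tested genes on a log scale of density, with values beyond the axis drawn at its edge, and coloured points are the 76 members by family. On the left the members climb with GC content from -0.62 to 3.59, and on the right most lie around 0, with Hspb1 the highest at 1.71.

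Per length, the cytosolic chaperones of HSP90 and constitutive HSP70 had the highest levels in both genotypes, and the inducible HSP70 and HSP25 genes were among the low members. Levels between genes are compared as RPKM, which are CPM divided by the exon length in kilobases. Hsp90ab1, the constitutive cytosolic HSP90, was the highest member with a mean of 446 RPKM in Bahd1-WT and 562 RPKM in Bahd1-KO. Hspa8, the constitutive HSP70, followed with 217 and 259 RPKM, and Hsp90aa1, the more inducible HSP90, with 212 and 168 RPKM. The ER members Hsp90b1 and Hspa5 had 181 and 96.4 RPKM in Bahd1-WT. The inducible HSP70 genes Hspa1a and Hspa1b had 1.29 and 0.798 RPKM in Bahd1-WT, and the inducible small heat shock gene Hspb1 had 0.260 RPKM. Of the 76 genes, 43 had a mean of at least 10 RPKM over the 6 mice, 23 a mean from 1 to 10, and 10 a mean under 1. The 6 most abundant genes held 43.3% of the summed CPM of the members.

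**Figure D2:**
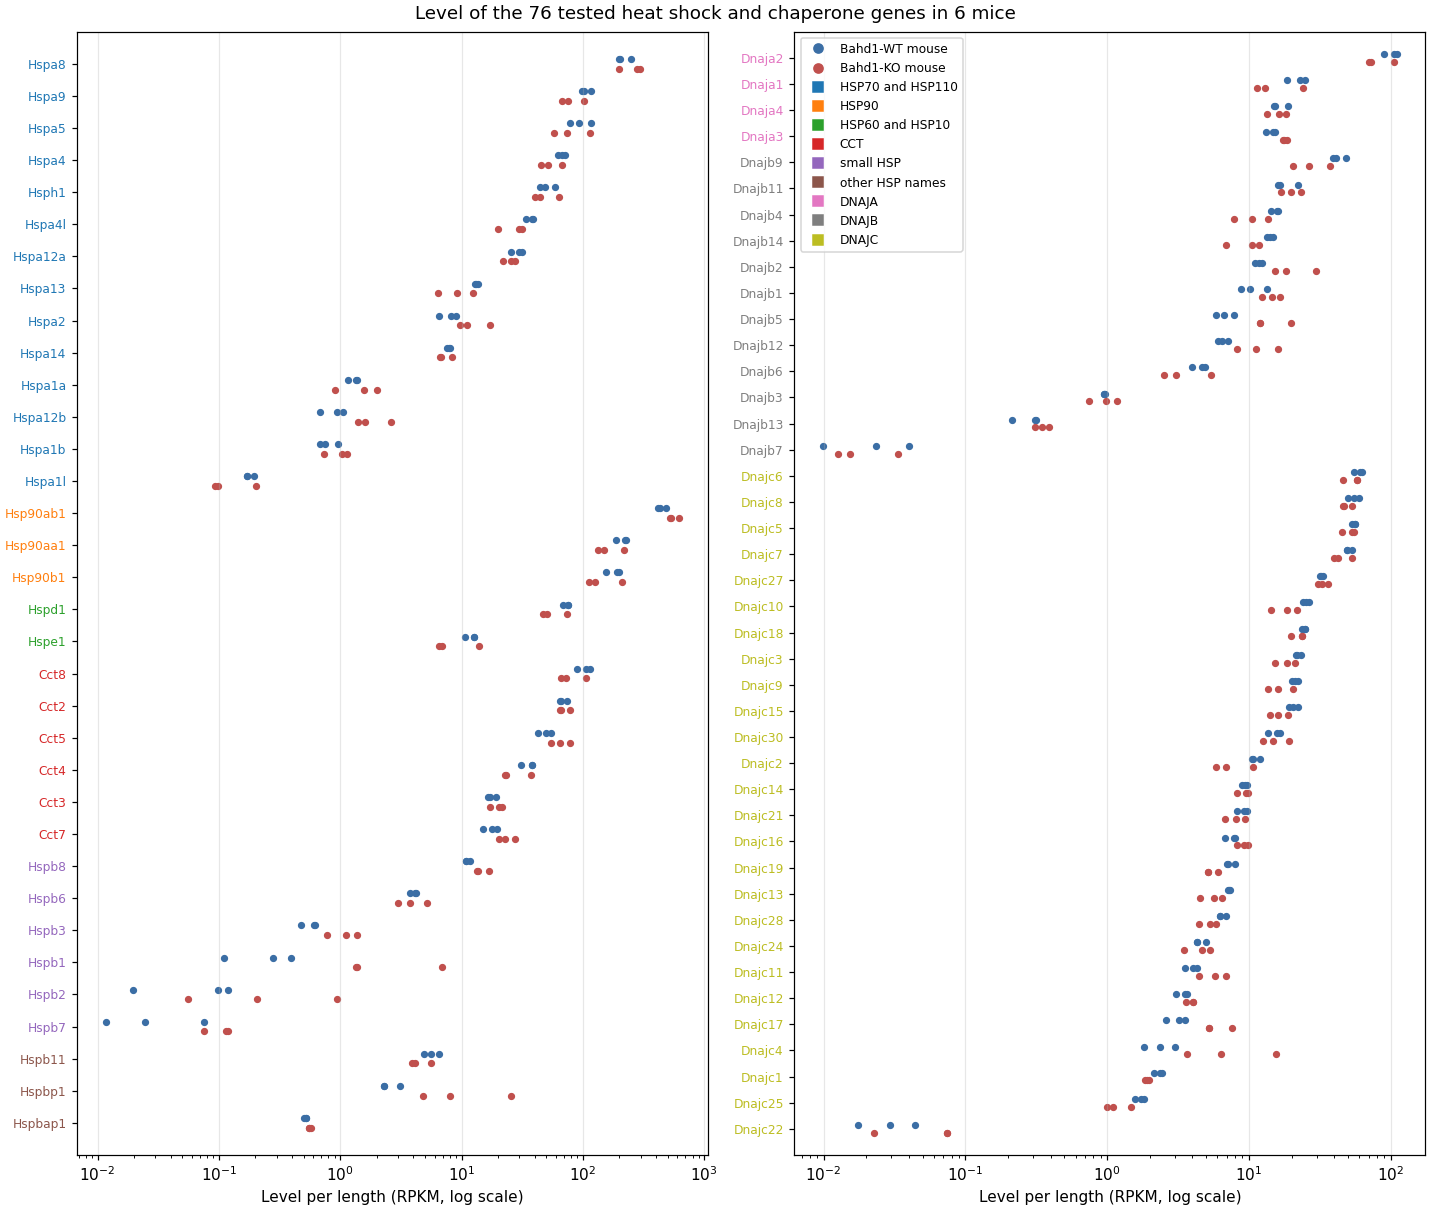
Level per length of the 76 tested members in each mouse (RPKM on a log axis), blue points for the 3 Bahd1-WT and red for the 3 Bahd1-KO mice, gene names coloured by family. Mean levels span from 0.0204 RPKM for Dnajb7 to 562 RPKM for Hsp90ab1, both in Bahd1-KO, and for most genes the mice of both genotypes overlap.

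The HSP70 and HSP110 family held 14 members, of which 2 were higher and none lower in Bahd1-KO at an unadjusted p under 0.05 (19.9% and 12% of all genes). With the offset 1 was higher (Hspa8) and 3 lower (Hspa1a, Hspa1b and Hspa1l), beside 9.89% and 11.4% of all genes. Hspa8 was at 859.8, 871 and 1072 CPM in Bahd1-WT replicates 1, 2 and 3 and at 1205, 1281 and 853 CPM in Bahd1-KO replicates 1, 2 and 3, so that the genotypes overlapped. The difference on the log2 scale was 0.25 ± 0.19 (SE; edgeR adjusted p = 0.383), and 0.49 with the offset (adjusted p = 0.153). Hspa2, an HSP70 best known from spermatogenesis, was at 23.9, 17.2 and 21.5 CPM in Bahd1-WT and at 29.3, 45.6 and 25.8 CPM in Bahd1-KO, where every mouse was above every Bahd1-WT mouse. On the log2 scale the difference of 0.69 ± 0.25 (edgeR adjusted p = 0.107) was 0.15 with the offset. Hspa12b, a distant HSP70 relative known from endothelial cells, had 2.51 to 3.87 CPM in Bahd1-WT and 5.17 to 9.67 CPM in Bahd1-KO, and its log2 fold change of 1.07 was -0.04 with the offset. Its sister gene Hspa12a, which is abundant in neurons, had a log2 fold change of -0.21, and -0.19 with the offset.

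The inducible pair Hspa1a and Hspa1b lies on chromosome 17 of GRCm38, at 34969190 to 34972156 and 34956436 to 34959238, both on the minus strand. They are given with caution, as 55.0% of all 65-base stretches of the longest Hspa1a transcript also occur in Hspa1b, a length chosen for this comparison, since the sources differ on the read length. Their promoters are shown because they carry the heat shock element of the most stress-responsive members; capitals mark the pair of inverted units GAANNTTC on either strand, in the 250 bases before the start (RefSeq, GRCm38.p6), which are equal at 247 positions.
Hspa1a, chr17:34972157-34972406, minus strand: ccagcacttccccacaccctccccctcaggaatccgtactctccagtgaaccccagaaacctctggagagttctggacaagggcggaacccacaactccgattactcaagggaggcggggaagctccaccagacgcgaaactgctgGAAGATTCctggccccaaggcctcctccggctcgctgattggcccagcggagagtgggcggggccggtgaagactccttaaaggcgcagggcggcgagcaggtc
Hspa1b, chr17:34959239-34959488, minus strand: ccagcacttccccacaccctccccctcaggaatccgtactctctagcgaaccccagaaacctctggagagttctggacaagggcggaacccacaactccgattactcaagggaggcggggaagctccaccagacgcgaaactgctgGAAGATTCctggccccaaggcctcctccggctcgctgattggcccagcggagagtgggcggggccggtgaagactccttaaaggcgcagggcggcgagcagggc

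Hspa1a was at 4.0, 3.45 and 4.05 CPM in Bahd1-WT and at 4.69, 5.93 and 2.68 CPM in Bahd1-KO, and Hspa1b at 2.10, 1.91 and 2.70 CPM and at 2.90, 3.19 and 2.06 CPM. The Bahd1-KO mice lay on both sides of the Bahd1-WT mice for Hspa1a, and replicate 3 was the lowest of its genotype for both genes. The log2 fold changes were 0.21 ± 0.30 for Hspa1a and 0.28 ± 0.26 for Hspa1b (edgeR adjusted p = 0.641 and 0.466). With the offset they turned to -0.97 ± 0.30 and -0.80 ± 0.30 (edgeR adjusted p = 0.115 and 0.166). Both transcripts have a high GC content, 58.9% and 58.1%, and the direction for these genes turned with the offset, which treats GC content and length together. Hspa1l, a neighbour of the pair with 0.230 to 0.504 CPM, had values of -0.39 and -0.91. It shares 1778 exon bases, 71.9% of its own, with Gm10501 on the opposite strand.

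Hspa4 and Hsph1 code for HSP110 proteins, exchange factors of HSP70. Hspa4 had 345 to 395 CPM in Bahd1-WT and 247 to 374 CPM in Bahd1-KO, and a log2 fold change of -0.29 ± 0.18 (edgeR adjusted p = 0.284), which was -0.11 with the offset. Hsph1 was at 323, 355 and 424 CPM in Bahd1-WT and at 459, 322 and 294 CPM in Bahd1-KO, with a log2 fold change of -0.04, and 0.12 with the offset, so that it varied more within the genotypes than between them. The mitochondrial HSP70 Hspa9, which pulls proteins into the mitochondrion, had 424 to 501 CPM in Bahd1-WT and 292 to 443 CPM in Bahd1-KO, a log2 fold change of -0.36 ± 0.19 (edgeR adjusted p = 0.213) and -0.14 with the offset. Without Bahd1-KO replicate 1 it was -0.53 (edgeR adjusted p = 0.0370). With the offset it ranged from -0.23 to -0.08 when each mouse was left out.

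The 3 HSP90 genes did not share a sign. Hsp90ab1 was at 1297, 1251 and 1464 CPM in Bahd1-WT and at 1609, 1873 and 1578 CPM in Bahd1-KO, where all 3 mice were above all Bahd1-WT mice. Its log2 fold change was 0.33 ± 0.15 (edgeR adjusted p = 0.171), and 0.16 with the offset. Hsp90aa1 was at 742, 894 and 871 CPM in Bahd1-WT and at 865, 524 and 589 CPM in Bahd1-KO, with a log2 fold change of -0.34 ± 0.21 (edgeR adjusted p = 0.279) and -0.01 with the offset. Without Bahd1-KO replicate 1, the highest of its genotype, it was -0.56 (edgeR adjusted p = 0.0347). With the offset it ranged from -0.09 to 0.04 when each mouse was left out. The ratio of Hsp90ab1 to Hsp90aa1 CPM was 1.40 to 1.75 in Bahd1-WT, 1.86 in Bahd1-KO replicate 1, 3.57 in replicate 2 and 2.68 in replicate 3. The GC contents of their transcripts are 51.0% and 43.7%.

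HSP60 and HSP10 share a promoter. Hspd1 and Hspe1 lie head to head on chromosome 1, with starts 216 bases apart in the RefSeq windows, and their annotated exons overlap by 112 bases on opposite strands. The 250 bases before the start of Hspe1 hold a run of overlapping heat shock units, in capitals, of the kinds GAANNTTC and TTCNNGAA, where N is any base. The longer form of GAANNTTC followed by NNGAA, searched on both strands and overlapping both short forms, was in 0.603% of all 32851 promoter windows of 300 bases. Among the 65 members with a promoter window it was in those of Hspd1, Hspe1, Dnajb6 and Hsph1.
Hspe1, chr1:55087898-55088147, plus strand: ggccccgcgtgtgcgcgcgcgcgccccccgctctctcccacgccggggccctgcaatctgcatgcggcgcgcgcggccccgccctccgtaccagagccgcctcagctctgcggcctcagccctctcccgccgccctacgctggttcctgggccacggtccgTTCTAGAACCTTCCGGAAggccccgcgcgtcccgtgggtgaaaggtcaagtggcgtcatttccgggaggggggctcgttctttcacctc

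Hspd1 was at 183, 200.1 and 199 CPM in Bahd1-WT and at 194, 125 and 133 CPM in Bahd1-KO. Hspe1 was at 15.7, 18.8 and 18.7 CPM in Bahd1-WT and at 20.6, 10.1 and 9.57 CPM in Bahd1-KO. For both genes Bahd1-KO replicate 1 lay within or above the Bahd1-WT values and the other two Bahd1-KO mice lay below them. The log2 fold changes were -0.37 ± 0.19 and -0.41 ± 0.30 (edgeR adjusted p = 0.215 and 0.369), and -0.23 and -0.27 with the offset. Without Bahd1-KO replicate 1 they were -0.56 and -0.82, with adjusted p of 0.0237 and 0.0158 in edgeR, but with less than a 2-fold change, so that neither was called. With the offset they ranged from -0.34 to -0.16 and from -0.52 to -0.15 when each mouse was left out. The ratio of Hspd1 to Hspe1 CPM was 10.6 to 11.6 in Bahd1-WT and 9.39 to 13.9 in Bahd1-KO. Dnajb6 and Hsph1, which hold the same long element, had log2 fold changes of -0.30 and -0.04, and -0.42 and 0.12 with the offset. A matching run of letters is a description and shows no binding.

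Of the 6 CCT genes selected by name, 4 had a higher and 2 a lower mean in Bahd1-KO, and none had an adjusted p under 0.05 with all mice. Cct5 was at 137, 117 and 151 CPM in Bahd1-WT and at 178, 217 and 149.9 CPM in Bahd1-KO. Cct7 was at 122, 102 and 134 CPM in Bahd1-WT and at 154, 188 and 138 CPM in Bahd1-KO, and was the only one of the 6 for which all Bahd1-KO mice were above all Bahd1-WT mice. Their log2 fold changes were 0.43 ± 0.18 and 0.42 ± 0.18 (edgeR adjusted p = 0.148 and 0.143). Cct4 (129, 161 and 160.3 CPM against 158, 97.1 and 96.0 CPM) and Cct8 (274, 352 and 326 CPM against 329, 203 and 225 CPM) were at -0.36 and -0.33. For both, Bahd1-KO replicate 1 was within the Bahd1-WT range and replicates 2 and 3 were below it. Without replicate 1 they were at -0.61 and -0.54 (edgeR adjusted p = 0.0280 and 0.0430). With the offset they ranged from -0.24 to 0.01 and from -0.04 to 0.06 when each mouse was left out. Cct2 and Cct3 were at 0.03 and 0.15. With the offset the values were 0.76 for Cct7, 0.34 for Cct3, 0.33 for Cct5, 0.15 for Cct2, 0.02 for Cct8 and -0.10 for Cct4, and 3 of the 6 had all Bahd1-KO mice above all Bahd1-WT mice (11.7% of all genes). The median of the 6 was 0.09 with TMM factors and -0.05 with upper-quartile factors, so its sign depended on the scaling. The subunits that the name pattern missed, Tcp1 and Cct6a, had log2 fold changes of -0.29 and -0.28, and 0.19 and -0.16 with the offset, and Cct6b, a testis form, was at 0.0972 to 0.205 CPM.

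Among the small heat shock genes, 5 of the 6 tested had a higher mean in Bahd1-KO (46.6% of all genes) and 4 of the 6 reached an unadjusted p under 0.05 in that direction (19.9%). With the offset 2 were higher and 1 lower at that level (9.89% and 11.4% of all genes). Their median log2 fold change was 1.17, positive under each scaling tried, and 0.47 with the offset. Their GC content is high, with a median of 56.2% beside 47.3% for all tested members. Hspb1, the stress-induced HSP25, had the largest difference of the 76 members and lies on chromosome 5 at 135887919 to 135889563. Its promoter is shown because it holds the pair of inverted units GAANNTTC at 2 places, in capitals; 7.86% of all promoter windows hold at least 1.
Hspb1, chr5:135887669-135887918, plus strand: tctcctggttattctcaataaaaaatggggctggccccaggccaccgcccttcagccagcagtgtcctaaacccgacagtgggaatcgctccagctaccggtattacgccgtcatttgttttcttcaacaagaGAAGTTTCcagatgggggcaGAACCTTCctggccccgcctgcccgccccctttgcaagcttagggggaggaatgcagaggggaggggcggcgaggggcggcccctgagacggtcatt

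Hspb1 had 37, 7 and 21 counts in Bahd1-WT, or 0.404, 0.113 and 0.286 CPM, and 62, 672 and 81 counts in Bahd1-KO, or 1.43, 7.06 and 1.40 CPM. All 3 Bahd1-KO mice were above all Bahd1-WT mice, and replicate 2 stood well above the other two. The log2 fold change was 3.59 ± 0.74 (a 12.1-fold higher level; edgeR unadjusted p = 0.000995, adjusted p = 0.0634). It ranged from 2.35 to 4.02 when each mouse was left out. With the offset it was 1.71 ± 0.34 (edgeR adjusted p = 0.0783), and 1.41 to 1.94 when each mouse was left out. The pseudogene Hsp25-ps1 had 1 count in all, in Bahd1-KO replicate 2.

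Hspb3, known from muscle, had 0.372 to 0.481 CPM in Bahd1-WT and 0.605 to 1.08 CPM in Bahd1-KO, without overlap, and a log2 fold change of 0.94 that was 0.55 with the offset. Hspb2 and Hspb7, also known from muscle, had at most 75 and 30 counts in a library, and log2 fold changes of 2.37 and 1.39 that were 0.63 and 0.38 with the offset. Hspb2 was highest in Bahd1-KO replicate 2 and was at 0.73 without it, and it shares 30.2% of its exon bases with Cryab on the opposite strand. Hspb8, which works with Bag3 in autophagy of damaged proteins, was at 21.3, 23.0 and 21.1 CPM in Bahd1-WT and at 26.0, 32.8 and 26.7 CPM in Bahd1-KO. These groups did not overlap, but the log2 fold change of 0.39 ± 0.17 (edgeR adjusted p = 0.159) was -0.07 with the offset. Hspb6 was the reverse case, at 9.70, 9.44 and 8.70 CPM in Bahd1-WT and at 6.92, 11.9 and 8.57 CPM in Bahd1-KO. Its log2 fold change was -0.02 ± 0.24, and with the offset -0.78 ± 0.14 (edgeR unadjusted p = 0.000241, adjusted p = 0.0783), with all 3 Bahd1-KO mice below all Bahd1-WT mice on that scale. It is the gene of HSP20, known from smooth muscle and astrocytes.

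**Figure D3:**
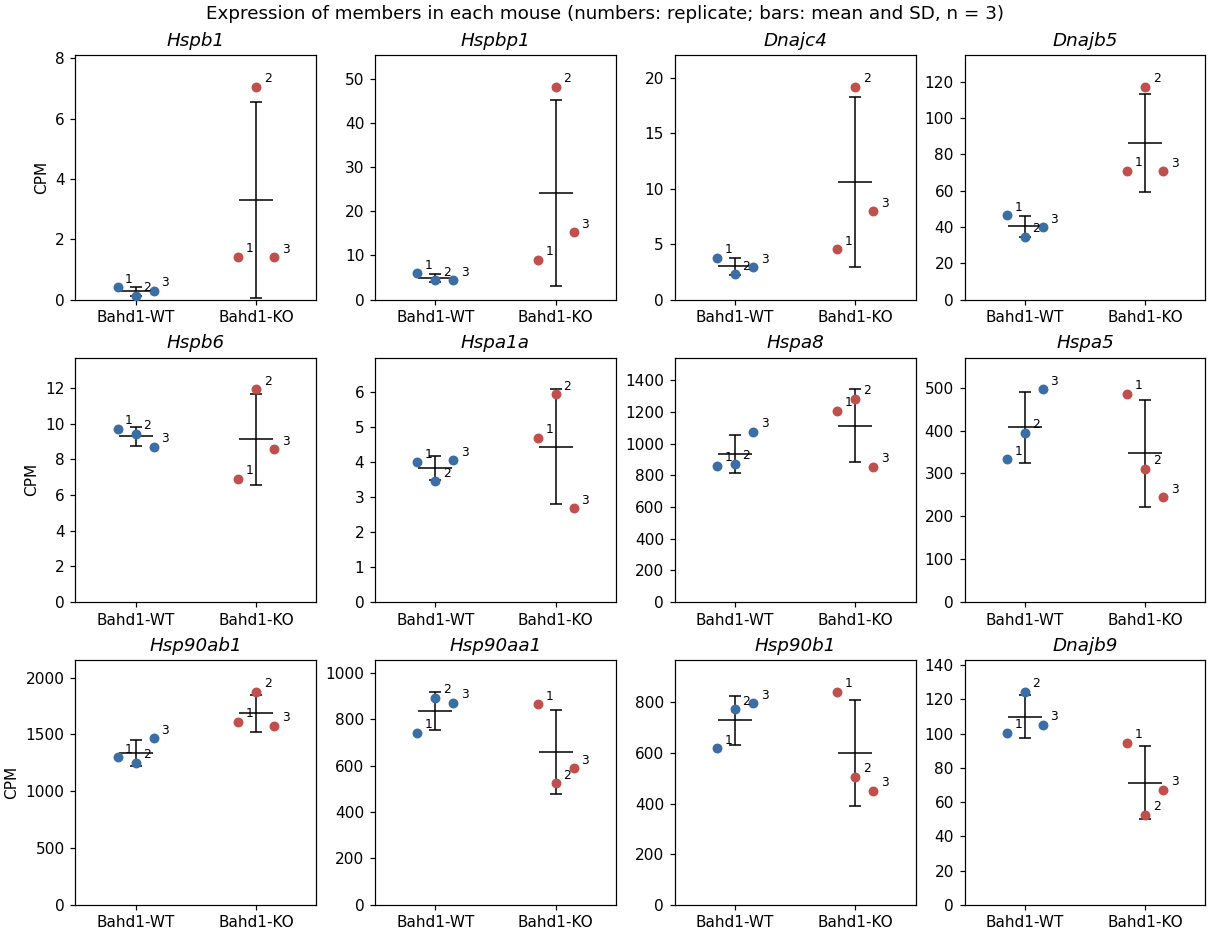
Expression of 12 members in each mouse (CPM on linear axes that start at 0), with points numbered by replicate and bars for the mean and SD of 3 mice. The Bahd1-KO mice lie above all Bahd1-WT mice for Hspb1, Hspbp1, Dnajc4, Dnajb5 and Hsp90ab1 and below them for Dnajb9, and replicate 2 is the highest Bahd1-KO mouse for each of the first 5, while for Hspa5, Hsp90aa1 and Hsp90b1 replicate 1 is the highest Bahd1-KO mouse and the genotypes overlap.

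Hspbp1 and Dnajc4 came next in size after Hspb1 among members at a mean of at least 1 CPM. Hspbp1, an exchange factor that inhibits HSP70, was at 5.92, 4.36 and 4.36 CPM in Bahd1-WT and at 9.08, 48.3 and 15.3 CPM in Bahd1-KO. The log2 fold change was 2.31 ± 0.55 (edgeR adjusted p = 0.0634), 1.32 without Bahd1-KO replicate 2, and 0.71 with the offset. Dnajc4, a little-studied J protein, was at 3.76, 2.27 and 2.92 CPM in Bahd1-WT and at 4.53, 19.2 and 7.95 CPM in Bahd1-KO. The log2 difference was 1.82 ± 0.49 (edgeR adjusted p = 0.0647), 1.07 without Bahd1-KO replicate 2, and 0.55 with the offset. For both genes all Bahd1-KO mice were above all Bahd1-WT mice, but the mean of Bahd1-KO rested largely on replicate 2. The other two names of this kind, Hspb11 and Hspbap1, had log2 fold changes of -0.32 and 0.12, and -0.07 and 0.47 with the offset.

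J proteins formed the largest group, with 4 DNAJA, 12 DNAJB and 26 DNAJC genes tested. At an unadjusted p under 0.05, none of the DNAJA genes were past the level, 3 DNAJB genes were higher and 3 lower, and 3 DNAJC genes were higher and 4 lower, beside 19.9% higher and 12% lower of all genes. With the offset 1 DNAJB gene was higher and 1 lower, and 3 DNAJC genes were higher and 1 lower, beside 9.89% and 11.4% of all genes. Dnajb5, a neuronal J protein that acts on class II histone deacetylases, had the lowest p of the J proteins. It was at 46.4, 34.6 and 39.8 CPM in Bahd1-WT and at 70.9, 117 and 70.7 CPM in Bahd1-KO, and every Bahd1-KO mouse was above every Bahd1-WT mouse. The log2 fold change was 1.10 ± 0.23 (2.14-fold; edgeR unadjusted p = 0.00127, adjusted p = 0.0634), between 0.81 and 1.25 when each mouse was left out, and 0.46 ± 0.12 with the offset (edgeR adjusted p = 0.0906), without overlap on that scale too. Dnajb2, which binds ubiquitinated proteins in neurons, was at 52.3, 46.8 and 50.3 CPM in Bahd1-WT and at 65, 126 and 77.0 CPM in Bahd1-KO. The value of 0.85 on the log2 scale (edgeR adjusted p = 0.0694) turned to -0.21 with the offset. Dnajc17, of the spliceosome, was at 3.40 to 4.66 CPM in Bahd1-WT and 6.79 to 9.88 CPM in Bahd1-KO, with values of 0.94 and 0.20.

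The stress-induced Dnajb1, the main partner of inducible HSP70, was at 32.4, 28.0 and 43.2 CPM in Bahd1-WT and at 46.5, 53.2 and 39.5 CPM in Bahd1-KO. The genotypes overlapped, with a log2 fold change of 0.43 ± 0.21 (edgeR adjusted p = 0.190) and 0.05 with the offset. Dnaja1, its farnesylated relative, was at 160.3, 213 and 197 CPM in Bahd1-WT and at 207, 98.1 and 112 CPM in Bahd1-KO. Only replicates 2 and 3 of Bahd1-KO were below the Bahd1-WT mice, and the log2 fold change of -0.45 ± 0.28 was 0.01 with the offset. Without replicate 1 it was -0.83 (edgeR adjusted p = 0.0125). With the offset it ranged from -0.21 to 0.17 when each mouse was left out. Dnajb6, which keeps polyglutamine proteins from aggregating, was at 23.9, 29.8 and 28.3 CPM in Bahd1-WT and at 32.7, 15.3 and 18.5 CPM in Bahd1-KO, with replicate 1 above the Bahd1-WT mice and the other two below them. It was at -0.30, and at -0.67 without replicate 1 (edgeR adjusted p = 0.0325). With the offset it was at -0.42, and ranged from -0.88 to -0.18 when each mouse was left out. The synaptic genes were close between genotypes: Dnajc5 (the cysteine string protein) had a log2 fold change of -0.09 and Dnajc6 (auxilin, which uncoats clathrin vesicles) one of -0.14, which were -0.05 and 0.02 with the offset, with 317 to 391 and 273 to 373 CPM over all mice.

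Of the members with the lowest p among those lower in Bahd1-KO, Dnajb9, Dnajb14, Dnajc19, Dnajb4 and Dnajc10, each had all 3 Bahd1-KO mice below all 3 Bahd1-WT mice. These genes were picked by p from the same values, which favours such separation, so it is no further support. Of all genes, 19.3% were below in this way. Dnajb9 (ERdj4), an ER partner of Hspa5, was at 100.5, 124 and 105 CPM in Bahd1-WT and at 94.6, 52.4 and 67.3 CPM in Bahd1-KO. Its log2 fold change was -0.62 ± 0.22 (edgeR adjusted p = 0.106) and -0.17 with the offset, where the genotypes still did not overlap. Dnajb14, of the ER membrane, and Dnajb4, of the cytosol, were at -0.53 each, and -0.06 and -0.08 with the offset. Dnajc10 (ERdj5), an ER disulfide reductase, was at -0.46 and -0.18. Dnajc19, of the mitochondrial import motor, was at -0.43 and turned to 0.11 with the offset. Their transcripts have a GC content of 40.3% to 44.9%. For a pair of J protein genes with high GC content the offset gave lower values. Dnajc30, a mitochondrial protein, went from 0.03 to -0.68 (edgeR adjusted p = 0.0783) and shares 26.2% of its exon bases with Bud23 on the opposite strand, and Dnajb3, at about 1 CPM, went from 0.01 to -0.90.

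**Figure D4:**
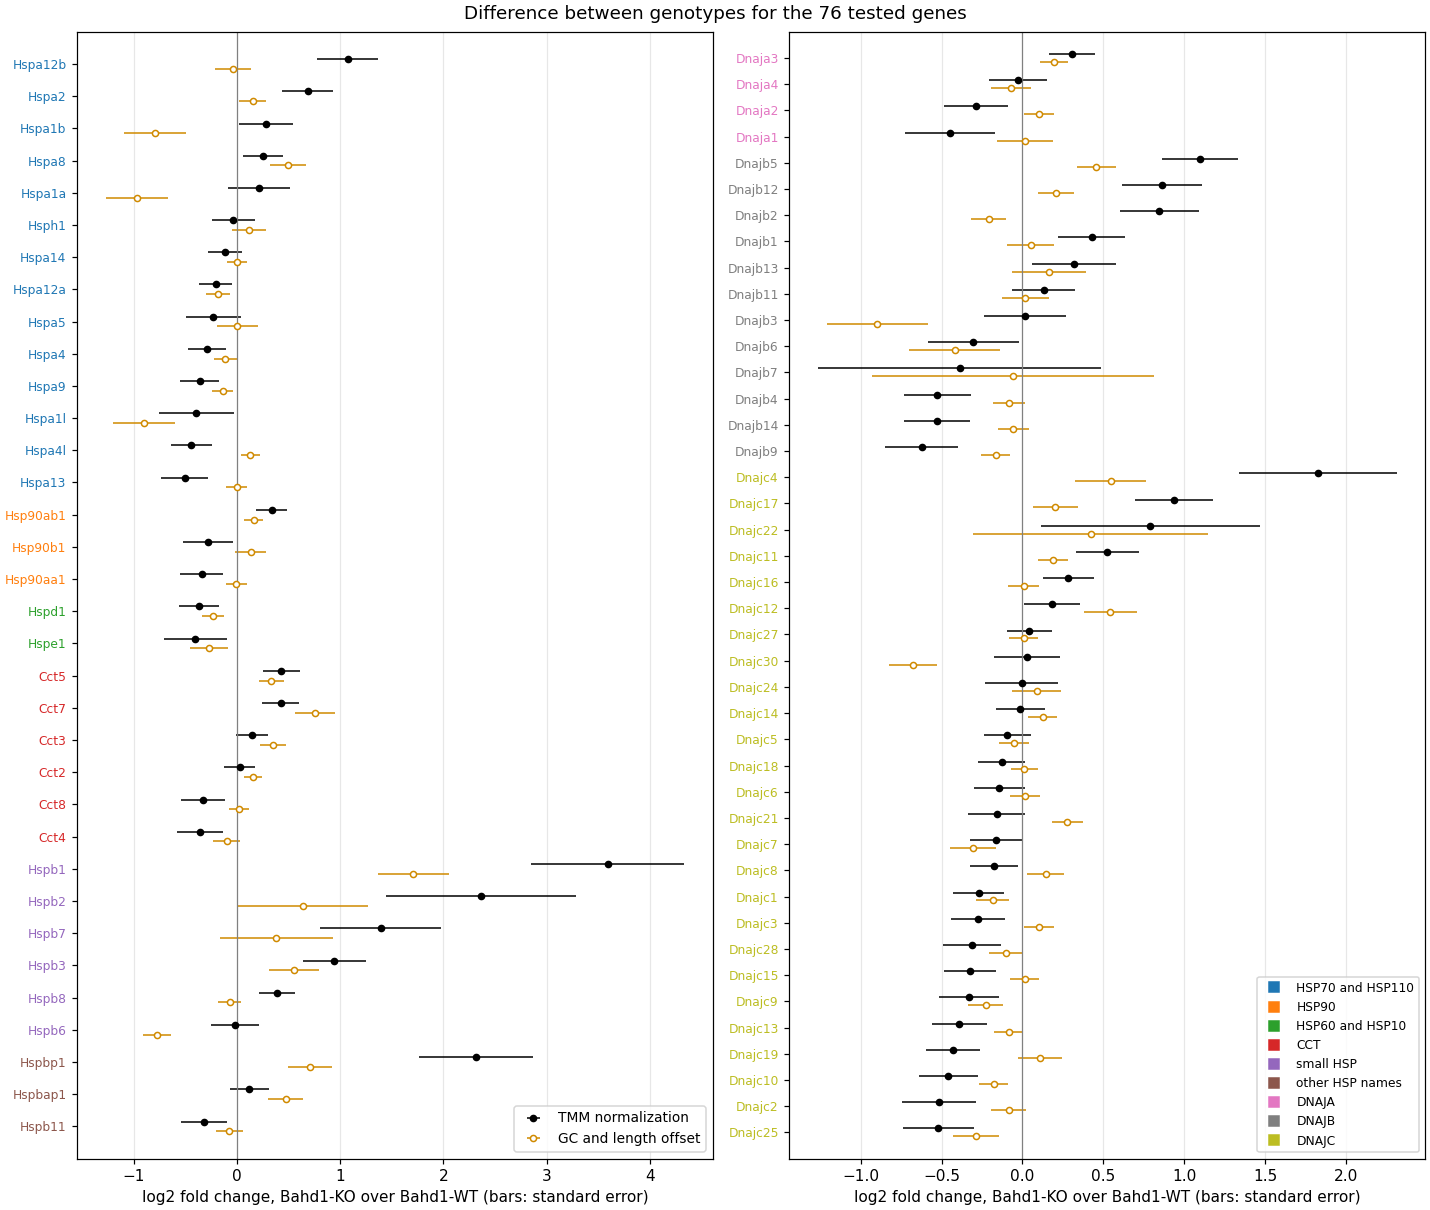
Log2 fold change, Bahd1-KO over Bahd1-WT, of each of the 76 tested members (x axis, a different range in each panel), as points with bars of 1 standard error from edgeR, black with TMM normalization and orange with the GC and length offset; names are coloured by family. Of these genes, 56 lie under 0.5 in size with TMM normalization and 63 with the offset, and at least 1 in size are 7 with TMM normalization and 1, Hspb1, with the offset.

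Of 6 members of the ER lumen, the genotypes overlapped for Hspa5, Hsp90b1 and Dnajb11, and all Bahd1-KO mice were below all Bahd1-WT mice for Dnajb9, Dnajc10 and Dnajc3 (19.3% of all genes). With the offset the genotypes overlapped for Dnajc3 too. Promoters are shown because Hspa5, Hsp90b1 and Dnajc3 hold an ER stress element, alone among the 65 members with a promoter window. This is the letters CCAAT, 9 bases of any kind and CCACG on either strand, in capitals, and 0.119% of all promoter windows hold it.
Hspa5, chr2:34771840-34772089, plus strand: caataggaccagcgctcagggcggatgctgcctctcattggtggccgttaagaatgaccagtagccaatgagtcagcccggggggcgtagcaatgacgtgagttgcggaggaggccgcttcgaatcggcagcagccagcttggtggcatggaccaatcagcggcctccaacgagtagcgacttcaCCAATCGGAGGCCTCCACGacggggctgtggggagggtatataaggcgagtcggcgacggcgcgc
Hsp90b1, chr10:86705445-86705694, minus strand: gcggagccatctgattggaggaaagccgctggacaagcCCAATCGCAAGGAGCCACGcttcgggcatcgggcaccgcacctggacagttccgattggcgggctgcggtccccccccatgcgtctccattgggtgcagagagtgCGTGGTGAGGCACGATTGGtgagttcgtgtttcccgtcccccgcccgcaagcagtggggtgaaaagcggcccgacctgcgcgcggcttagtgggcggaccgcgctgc
Dnajc3, chr14:118937682-118937931, plus strand: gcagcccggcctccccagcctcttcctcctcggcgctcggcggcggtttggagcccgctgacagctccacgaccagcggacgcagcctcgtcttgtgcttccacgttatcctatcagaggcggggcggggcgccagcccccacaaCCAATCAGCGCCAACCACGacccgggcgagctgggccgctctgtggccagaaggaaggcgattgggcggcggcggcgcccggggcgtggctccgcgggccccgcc

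Hspa5 (BiP), the HSP70 of the ER, was at 333, 394 and 496 CPM in Bahd1-WT and at 487, 311 and 244 CPM in Bahd1-KO. Hsp90b1 (GRP94) was at 619, 772 and 796 CPM in Bahd1-WT and at 841, 506 and 452 CPM in Bahd1-KO. Bahd1-WT replicate 3 and Bahd1-KO replicate 1 were the highest of their genotypes for both genes. The log2 fold changes were -0.23 ± 0.27 and -0.28 ± 0.25 (edgeR adjusted p = 0.562 and 0.439), and 0.00 and 0.13 with the offset. Without Bahd1-KO replicate 1 they were -0.53 and -0.58 (edgeR adjusted p = 0.0953 and 0.0399). With the offset they ranged from -0.19 to 0.19 and from 0.03 to 0.28 when each mouse was left out. Dnajc3 (P58IPK) was at 112, 110.5 and 119.8 CPM in Bahd1-WT and at 109.5, 78.1 and 95.5 CPM in Bahd1-KO, with a log2 fold change of -0.28, and 0.10 with the offset. Over these 3 genes, Dnajb9, Dnajb11 and Dnajc10, Bahd1-KO replicate 1 was the highest of its genotype for 6 of 6 and Bahd1-WT replicate 3 for 4 of 6. Over the 15 genes of the ER list described below, Bahd1-KO replicates 1 and 2 were the highest for 6 each, and Bahd1-WT replicate 3 for 10. Over all 76 members the same mice were the highest of their genotypes for 39 and 31 genes, or 51.3% and 40.8%, beside 36.2% and 28.5% of all genes.

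Of the 62 other genes of these pathways, taken from 7 lists, none passed an adjusted p under 0.05 in edgeR, 19 were higher and 5 lower in Bahd1-KO at an unadjusted p under 0.05 (30.6% and 8.06%, beside 19.9% and 12% of all genes), and DESeq2 called 11, where it called 10.5% of all genes. With the offset the counts at an unadjusted p under 0.05 were 11 and 6, or 17.7% and 9.68%, beside 9.89% and 11.4% of all genes. The median log2 fold change of the 62 genes was 0.16, and 0.02 with the offset. Without Bahd1-KO replicate 1, 15 were called, and 16.8% of all genes. The counts of each list below are at an unadjusted p under 0.05, for which the shares of all genes are those just given.

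Among the 5 heat shock factors and binding proteins, 2 were higher and 1 lower at an unadjusted p under 0.05, and 1 and 0 with the offset. Hsf1, the master factor of the heat shock response, was at 11.4, 6.17 and 9.48 CPM in Bahd1-WT and at 12.7, 42.0 and 22.3 CPM in Bahd1-KO. The groups did not overlap, and the log2 fold change was 1.51 (edgeR adjusted p = 0.0664) and 0.98 with the offset (adjusted p = 0.0946). Hsf4, the lens factor, was at 2.03 and 0.37 with the offset. Hsf2 was at -0.63 and 0.03 with the offset.

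Among the 14 cochaperones of HSP90, 6 were higher and 2 lower at an unadjusted p under 0.05, and 2 and 1 with the offset. Cdc37, which brings kinases to HSP90, was at 43.4, 31.0 and 40.2 CPM in Bahd1-WT and at 62.9, 149.6 and 77.8 CPM in Bahd1-KO, with a log2 fold change of 1.34 that stayed at 1.26 with the offset (edgeR adjusted p = 0.0634 and 0.0783). The ubiquitin ligase gene Stub1, at 1.45, was at -0.06 with the offset. Of the 9 exchange factors of HSP70, 2 were higher and 1 lower at that level, and 2 and 2 with the offset, with Hyou1 of the ER at 0.76 and 0.45 with the offset. Bag3 was at 0.88 and -0.04 with the offset.

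Cryab, an alpha crystallin and thus a small heat shock protein outside the name pattern, was at 39.0, 26.5 and 32.0 CPM in Bahd1-WT and at 61.6, 186 and 87.4 CPM in Bahd1-KO. Its log2 fold change was 1.78 and 1.00 with the offset (edgeR adjusted p = 0.0634 and 0.0783), and the genotypes did not overlap in either. Cryaa, the other alpha crystallin, was at 0 to 0.147 CPM. In the ER list, 11 of 15 genes had a higher mean in Bahd1-KO (46.6% of all genes). Of these 2 reached an unadjusted p under 0.05, and of the 4 with a lower mean none did. With the offset the balance turned, as 6 had a higher mean (42.5% of all genes) and 9 a lower one. The median log2 fold change went from 0.13 to -0.10, and 2 were higher and 2 lower at that level. Ddit3 (CHOP), a factor of ER stress, had the largest difference of the list at 1.63, and 1.88 with the offset. In the mitochondrial list, 4 of 8 were higher and 1 lower at an unadjusted p under 0.05, and 1 and 0 with the offset. The largest differences were those of the proteases Lonp1 and Clpp at 1.10 each, which were at 0.15 and -0.14 with the offset. In the list of prefoldin and further CCT subunits, 3 of 9 had a higher (46.6% of all genes) and 6 a lower mean in Bahd1-KO. Their median was -0.28 on the log2 scale, and 2 of the higher and none of the lower ones reached that level (2 and 1 with the offset). With the offset 5 had a higher (42.5% of all genes) and 4 a lower mean, and the median was 0.01. The prefoldin gene Pfdn6 was at 1.27 and 0.26 with the offset.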

How the data were processed

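RNA-seq was analysed for one hemisphere of 3 Bahd1-WT and 3 Bahd1-KO mice, grouped by their labels. Per the labels and the paper, the authors trimmed reads with cutadapt 1.11, aligned them to GRCm38 (STAR 2.5.0a is listed, while the supplement also names Tophat2), counted reads on exons by strand with featureCounts 1.4.6-p3, and deposited whole-number counts per gene without normalization. The table holds 0 columns of other series. Genes with 10 or more counts in the 6 samples together were tested with edgeR 4.0.16 in R 4.3.3 (quasi-likelihood test, TMM factors, genotype only, Benjamini-Hochberg adjustment, 2-fold threshold). CPM use TMM library sizes and RPKM the exon length of GENCODE M21. The offset was a natural spline on GC content (5 degrees of freedom) and log length (3), fitted per library to 13283 genes. DESeq2 1.42.0, other scalings, filters, a replicate block and leaving out each mouse were alternatives. Promoters came from RefSeq for 65 of the 80 members (84 windows of 250 bases before and 50 after a start).

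The members and gene lists were chosen with earlier results of these data known. Named were a list of core chaperones, the 5 members with the lowest p and the 3 with the largest difference in each direction (the latter at a mean of at least 1 CPM), any member with an adjusted p under 0.05, and members with 0 counts; other members and list genes were named after their values were seen. The labels give separate animals, so p-values measure the spread between mice. Counting limits (3 counts) cover counting error only. Embryonic data were not analysed here.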

Additional observations from a re-analysis of the deposited data

How the results depend on the processing

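Depth limited the lowest tested members, of which Dnajb7, Dnajc22, Hspb7 and Hspb2 had 13, 31, 84 and 103 counts in the 6 mice together. The number of members called was 0 in the main edgeR test, 5 with DESeq2 with or without its normal prior, 5 when genes with a sum of at least 1 count were tested (6.41%, beside 8.45% of all genes), 6 with total counts (7.89%, beside 8.37%), and 0 to 9 when each mouse was left out, with 9 only without Bahd1-KO replicate 1. With upper-quartile or DESeq2 size factors, filterByExpr, the replicate block, the offset and the offset with the block it stayed 0. Members higher at an unadjusted p under 0.05 numbered 15, and 9 to 19 when each mouse was left out. Members lower at that level numbered 7, against 1 with total counts, 13 with upper-quartile factors and 0 to 24 when each mouse was left out. The 19 higher and 24 lower were reached without Bahd1-KO replicate 1 (25.0% and 31.6% of members, beside 24.7% and 18.6% of all genes). All Bahd1-KO mice were above all Bahd1-WT mice for 17 members (17 to 26 when each mouse was left out). They were below for 13 (8 with total counts, 13 to 31 when each mouse was left out). When Bahd1-KO replicate 1 was left out, 27.6% of members were above and 40.8% below, beside 31.0% and 30.4% of all genes. With total counts 10.5% of members were below, beside 14.6% of all genes. The median log2 fold change of -0.06 was -0.20 with upper-quartile factors, 0.01 with total counts, 0.01 with the offset and -0.13 to -0.03 when each mouse was left out. For genes of the pathway lists, 0 were called, against 11 with DESeq2 with or without the prior, with a sum of at least 1 count or with total counts, and 0 to 15 when each mouse was left out. The causes of these moves were not tested.

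The replicate numbers did not pair the mice: same-numbered samples correlated at -0.223, -0.244 and -0.0248 in their deviations from the genotype means. With the replicate block, 10 members were higher and 1 lower at an unadjusted p under 0.05 (15.1% and 6.68% of all genes). With the block and the GC and length offset they numbered 8 and 6, for which the share of all genes was not counted. With the offset and each mouse left out, an alternative added after the data were seen, 0 to 4 members and 0 to 5 genes of the pathway lists were called, members higher at an unadjusted p under 0.05 numbered 6 to 12, those lower 4 to 16, those without overlap 17 to 23 above and 10 to 21 below, and the median was -0.03 to 0.05. The calls came without Bahd1-KO replicate 1, when Hspa1a and Hspa1b were at -1.42 and -1.18 (edgeR adjusted p = 0.00731 and 0.0152) against 0.21 and 0.28 in the main test. In that fit 5.26% of members were called, beside 3.97% of all genes. At an unadjusted p under 0.05, 15.8% were higher and 21.1% lower, beside 12.3% and 13.9% of all genes. Without overlap, 26.3% of members were above and 27.6% below, beside 19.1% and 24.5% of all genes. Of the 38 named members tested, 11 had the opposite sign with the offset, and at most 2 with another scaling or with a mouse left out without it.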

Other observations

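Pseudogenes left out of the members had few counts, with 1 exception. Hspd1-ps3, on chromosome 11, held 7132 of the 7280 counts of the 14 pseudogenes, at 758 to 1640 counts per mouse, beside 7691 to 16714 for Hspd1 itself. Its log2 fold change of -0.39 ± 0.23 (edgeR adjusted p = 0.266) was close to the -0.37 of Hspd1. How many reads the pseudogene and Hspd1 share was not tested. Hspg2, the basement membrane proteoglycan perlecan that shares the Hsp prefix without being a chaperone, had 47 to 152 counts in Bahd1-WT and 70 to 959 in Bahd1-KO, highest in replicate 2, and a log2 fold change of 2.17 (edgeR adjusted p = 0.0655).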
